A study of Mus musculus with 22 samples.

Results

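The genes described here are 7 transcription regulators of lysosomal and lipid genes in macrophages, measured in microglia sorted from mice that were or were not fed cuprizone. They are Bhlhe40 and Bhlhe41, the microphthalmia family members Mitf, Tfec, Tfeb and Tfe3, and Pparg. Each was found by its symbol as the probe set that maps to that symbol alone and, where there was more than 1, has the highest mean over the groups. They make up 7 of 19937 genes with such a probe set. Of these 7 regulators, 6 passed a filter that asked for a signal above the median of the array on at least 2 arrays, and Pparg did not.

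Bhlhe40 and Bhlhe41 are basic helix-loop-helix repressors that bind the E-box CACGTG, restrain the circadian clock and are known in macrophages as regulators of lipid and lysosomal genes. Mitf, Tfec, Tfeb and Tfe3 bind the same kind of box as dimers. Tfeb and Tfe3 are held in the cytoplasm by the kinase complex mTORC1 and enter the nucleus when lysosomes are stressed or nutrients are scarce, so that much of their control lies outside their own mRNA level. Pparg is a nuclear receptor for fatty acids that pairs with a retinoid X receptor and drives lipid uptake and storage in macrophages. Microglia that clear myelin debris take up large amounts of lipid and enlarge their lysosomes, and Trem2 is a lipid-sensing surface receptor of these cells.

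RNA of 22 samples was hybridised to 1 Affymetrix mouse gene array each. The cells were called microglia by the submitters when they were positive for CD11b, CD45 and F4/80 in the sort. Wild-type mice gave 2 negative control samples, 3 after 4 weeks of 0.2% cuprizone in the feed, 3 after 4 weeks of Covi-Ox, a tocopherol mixture given at 0.1% of the feed with added alpha tocopherol, and 3 after both. Cuprizone chelates copper and causes the death of oligodendrocytes, which leaves myelin debris behind. Trem2(-/-) mice gave 2 negative control samples, 3 after cuprizone, and 6 more whose labels contradict each other. Set A holds 3 of these 6, with titles that name cuprizone with Covi-Ox and other fields that name Covi-Ox only. Set B holds the remaining 3, with titles that name Covi-Ox only and other fields that name both additives. Both sets are therefore kept apart, and no diet is assigned to either. Mice given both additives had received the Covi-Ox feed before cuprizone was added, and mice given cuprizone alone had received normal chow. Strain, age and sex are not given in the labels, nor is it stated whether samples of a group came from separate mice, so that the p-values cover the spread between these samples, which may be technical. The knockout is described by genotype alone, with no word on the allele.

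Array medians lay between 5.17 and 5.27 on the log2 scale, an intensity of 36.1 to 38.6. Trem2 itself was at 10.00 to 10.75 on the 11 wild-type arrays and at 6.40 to 6.83 on the 11 knockout arrays, with no overlap. Of 12 microglia markers, 11 had a probe set, and these 11 were above the median on all 22 arrays. Of markers of other cell types with a probe set, above the array median on no array were Gfap, Aqp4 and Aldh1l1 of 5 for astrocytes, Mobp of 5 for oligodendrocytes, Cldn5 of 4 for endothelium, Syt1 and Stmn2 of 4 for neurons, Cd3g, Cd79a and Nkg7 of 4 for lymphocytes, and Vcan of 4 for monocytes. Above it on all 22 arrays were Slc1a3 for astrocytes, Mbp and Cnp for oligodendrocytes, Cd3e for lymphocytes and Ccr2 for monocytes. So were 7 of 8 border macrophage markers, Mrc1, Pf4, Cd163, Lyve1, F13a1, Ms4a7 and Cbr2. The 8 border macrophage markers had a mean of 6.60 to 8.02 per array and the 7 neutrophil markers one of 4.27 to 7.30. The arrays WT cuprizone 3, KO cuprizone 2 and KO cuprizone 3 stood apart in 18 immediate-early genes, with a mean of 9.09 to 9.47 against 10.39 to 10.62 on the other 19. In such bulk samples, fewer cells of a type and less RNA per cell cannot be told apart.

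The regulators act on short DNA motifs, and 4 start-site regions are shown. They belong to Bhlhe41, the 1 regulator with an E-box among the 6 that had an entry, and to 3 lysosomal genes. These 3 had an entry and rose with cuprizone in wild type (values further on), as did Ctsb and Atp6v0d2. Bhlhe40 had no entry, so its region was not searched. The regions are RefSeq's for GRCm38.p6, run from 250 bases before to 50 bases after the start, and are printed on the strand of the gene. Bhlhe41 (chr6:145865371-145865670, minus strand) holds 1 E-box. Gla, which encodes the lysosomal enzyme alpha-galactosidase (chrX:134600956-134601255, minus strand), holds 2, both within the longer motif TCACGTGA that is the core of the lysosomal CLEAR element, and between them TCATGTGA, the core of the M-box bound by Mitf. Naglu (chr11:101069844-101070143, plus strand) and Gaa (chr11:119267713-119268012, plus strand), which encode enzymes that break down heparan sulfate and glycogen, hold 1 E-box each. Capitals mark these motifs.
Bhlhe41: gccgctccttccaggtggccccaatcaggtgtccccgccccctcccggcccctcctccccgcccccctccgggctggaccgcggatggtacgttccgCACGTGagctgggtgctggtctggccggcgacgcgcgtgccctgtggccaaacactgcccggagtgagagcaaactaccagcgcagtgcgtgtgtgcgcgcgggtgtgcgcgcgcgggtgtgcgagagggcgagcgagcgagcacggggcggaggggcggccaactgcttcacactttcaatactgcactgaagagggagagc
Gla: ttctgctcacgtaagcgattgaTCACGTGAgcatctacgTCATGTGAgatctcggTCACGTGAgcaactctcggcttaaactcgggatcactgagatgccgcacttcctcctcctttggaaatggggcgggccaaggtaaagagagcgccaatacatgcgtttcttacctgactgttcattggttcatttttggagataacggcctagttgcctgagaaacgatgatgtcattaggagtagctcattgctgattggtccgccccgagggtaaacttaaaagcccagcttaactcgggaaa
Naglu: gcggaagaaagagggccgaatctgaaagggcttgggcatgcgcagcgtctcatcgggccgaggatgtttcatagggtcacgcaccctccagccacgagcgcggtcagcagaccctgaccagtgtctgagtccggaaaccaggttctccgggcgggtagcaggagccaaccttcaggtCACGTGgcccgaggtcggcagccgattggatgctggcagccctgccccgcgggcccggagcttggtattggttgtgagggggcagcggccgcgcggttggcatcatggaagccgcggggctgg
Gaa: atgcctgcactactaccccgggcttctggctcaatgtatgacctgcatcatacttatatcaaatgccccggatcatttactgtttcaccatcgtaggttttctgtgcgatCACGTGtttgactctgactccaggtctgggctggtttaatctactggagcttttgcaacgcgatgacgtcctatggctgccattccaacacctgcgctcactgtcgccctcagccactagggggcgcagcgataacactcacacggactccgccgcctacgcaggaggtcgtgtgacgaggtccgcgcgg

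The first base of the E-box lies at position -153 from the start in Bhlhe41, -227 and -194 in Gla, -73 in Naglu and -140 in Gaa. All motifs were searched on both strands, and every TCACGTGA also contains a CACGTG. Of 32851 start-site regions of this length, 7.15% held CACGTG, 0.974% TCACGTGA, 0.986% TCATGTGA and 0.0396% the direct repeat bound by PPAR dimers. Of the regulators, all but Bhlhe40 had an entry. These 6 had 13 regions, of which 1 held CACGTG (7.69%) and none any of the other motifs. A list of lysosomal and autophagy genes described as CLEAR targets held CACGTG in 14 of 33 regions (42.4%) and TCACGTGA in 8 (24.2%). The full CLEAR element, which extends this core and was also searched, was in none of the 33, against 0.326% of all 32851 regions. The list of CLEAR targets was assembled from known targets of these factors, so its share is a description, and a match is not a measured binding site. CACGTG was also in 33.3% of 18 regions of genes that control Tfeb and Tfe3, and in 28.6% of 14 regions of PPAR targets. It was in 26.7% of 15 regions of lipid and lysosome genes under Bhlhe40 and Bhlhe41, and in 25% of 20 of circadian genes. Osteoclast and macrophage targets of Mitf and its relatives had it in 7.69% of 13 regions, and PPAR partners in none of 18.

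Bhlhe40 had the widest range of the 7 regulators over the arrays, and it was high only on arrays of wild-type mice fed cuprizone. In wild type it was at 3.85 and 3.63 in the negative control samples, 5.48, 5.82 and 7.47 after cuprizone, 3.77, 3.82 and 3.68 after Covi-Ox, and 7.52, 7.74 and 7.46 after both. In the knockout it was at 3.45 and 4.50 in the negative control samples, 4.23, 3.30 and 3.63 after cuprizone, 3.84, 3.94 and 3.79 in set A, and 3.97, 3.81 and 4.21 in set B. All 6 wild-type arrays with cuprizone lay above the array median and all other 16 below it, with no overlap. As geometric mean intensities, the group levels were 191 for both additives and 76.5 for cuprizone alone, against 13.2 to 16.0 in the other 6 groups. In the order of group means, WT both stood first and WT cuprizone second with ranges that overlapped, since WT cuprizone 3 at 7.47 lay among the arrays with both additives. The 6 low groups overlapped from one to the next. Bhlhe40 passed the filter only through the 2 groups in which it was high, and since the other groups lie below the array median, the folds given for it depend on how low signals were measured.

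**Figure D1:**
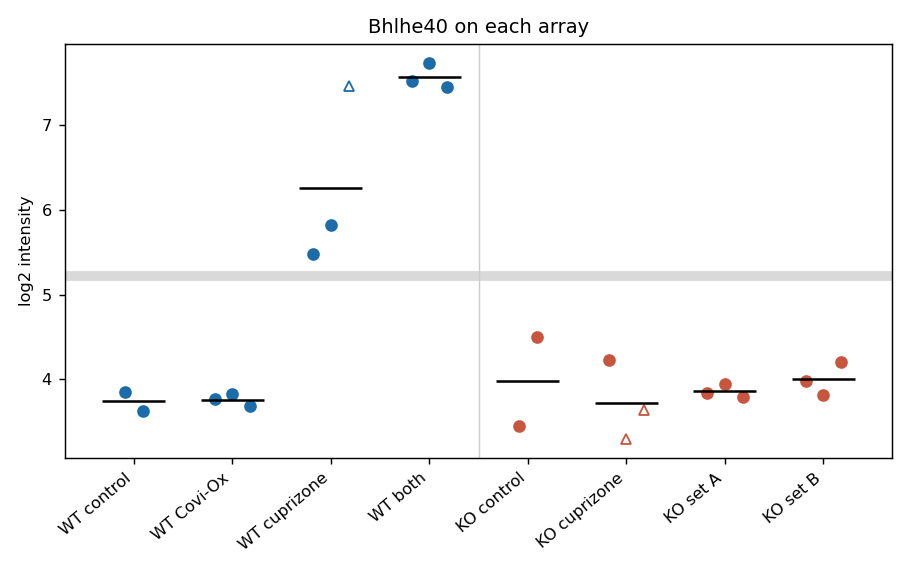
Bhlhe40 on each of the 22 arrays (log2 intensity, vertical axis) by group (horizontal axis), 1 point an array, blue for wild type and red for the knockout, with a bar at the group mean, the range of array medians as a grey band and the 3 arrays low in immediate-early genes as open triangles. The 6 arrays of wild-type mice fed cuprizone lie between 5.48 and 7.74, above the band, and the other 16 between 3.30 and 4.50, below it.

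With cuprizone alone, Bhlhe40 rose in wild type by 2.52 ± 0.39 on the log2 scale (SE; 5.73-fold; 3 against 2 arrays; limma, adjusted p = 0.001053). With only the arrays of these 2 groups in the model it was not called (adjusted p = 0.1996). It was 1 of 6 regulators tested that was called at an adjusted p of 0.05, where 2.50% of all 11830 genes were called, 1.80% as higher and 0.702% as lower. The knockout difference for the same feed was -0.26 ± 0.39 (95% interval -1.07 to 0.56; adjusted p = 0.8343), and none of the 6 regulators was called in it, against 0.0423% of all genes by limma, with 1591 genes at an unadjusted p under 0.05. The difference between both cuprizone effects, knockout minus wild type, was -2.77 ± 0.55 (limma, adjusted p = 0.03731), 1 of 6 regulators called where 0.228% of genes were, 0.0423% as higher and 0.186% as lower. Higher genes were 18.5% of these calls and 4.35% after median centring. This call was the least stable of Bhlhe40. It was lost without WT control 1 (adjusted p = 0.1383), WT control 2 (0.1918), KO control 2 (-2.25, 0.2863), KO cuprizone 2 (0.1079) or KO cuprizone 3 (0.08541), and without any 1 array of WT Covi-Ox or WT both, arrays 1 or 3 of set A, or arrays 1 or 3 of set B (0.05036 to 0.05788 by limma). Without all 3 arrays low in immediate-early genes it was -1.66 ± 0.37 (adjusted p = 0.1055), with 1 knockout cuprizone array left, which is then assumed to vary like the other groups.

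Among mice fed cuprizone alone, Bhlhe40 was lower in the knockout than in wild type by a log2 difference of -2.54 ± 0.35 (5.80-fold; 3 against 3 arrays; limma, adjusted p = 0.0001916). This comparison called 2 of 6 regulators, both lower, where 3.80% of genes were called, 0.820% as higher and 2.98% as lower. Higher genes were 21.6% of the calls, 36.5% after quantile normalization and 7.17% after median centring. Without the 3 arrays low in immediate-early genes the Bhlhe40 difference was -1.42, still called, and with only the 6 arrays of these groups in the model it was not called (limma, adjusted p = 0.09379). Between the negative controls of both genotypes it was 0.24 ± 0.43, and none of the regulators was called (0.0676% of genes by limma, 1244 at an unadjusted p under 0.05).

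Bhlhe40 also rose with cuprizone on the Covi-Ox feed. WT both lay above WT Covi-Ox by 3.82 ± 0.35 (14.1-fold; limma, adjusted p = 6.73e-07), and this comparison called 3 of 6 regulators, 2 higher and 1 lower, where 7.82% of genes were called, 4.65% as higher and 3.17% as lower. Covi-Ox alone left Bhlhe40 at a difference of 0.02 ± 0.39 from the controls, with none of the regulators called (0.0338% of genes by limma, 862 at an unadjusted p under 0.05). WT both against WT cuprizone gave 1.32 ± 0.35, which did not pass (limma, adjusted p = 0.187), and no regulator was called where 0.152% of genes were and 957 had an unadjusted p under 0.05. The Covi-Ox difference of the cuprizone effect was 1.30 ± 0.52 (limma, adjusted p = 0.6777), again with no regulator called (0.0254% of genes, 785 at an unadjusted p under 0.05). Both of the latter rest on WT cuprizone 3, the array with the highest Bhlhe40 of its group and low immediate-early genes. Without it, WT both exceeded WT cuprizone by 1.92 ± 0.25 (limma, adjusted p = 0.0002463) and the Covi-Ox difference was 1.90 ± 0.35 (adjusted p = 0.02096). Without all 3 arrays low in immediate-early genes these were 1.92 (limma, adjusted p = 9.635e-05) and 1.90 (adjusted p = 0.007698), and when the model took in the mean of these genes per array the first was 1.55 (adjusted p = 0.03317) and the second was not called.

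Both knockout sets lay below the wild-type mice given both additives and overlapped the WT control and WT Covi-Ox arrays. Set A lay below WT both by a log2 difference of -3.71 ± 0.35 (13.1-fold; limma, adjusted p = 5.144e-07) and set B by -3.58 ± 0.35 (11.9-fold; adjusted p = 1.305e-06), and these share the 3 WT both arrays. The first called 2 of 6 regulators (9.60% of genes, 4.01% as higher and 5.60% as lower; higher genes were 41.7% of calls and 51.7% after quantile normalization) and the second 1 of 6 (3.89%, 1.27% as higher and 2.62% as lower). Whichever set received both additives, its 3 arrays lay between 3.79 and 4.21. No regulator was called by limma in set A against KO control (0.0338% of genes; 1364 at an unadjusted p under 0.05), set B against KO control (0.744%; 1686), set A against set B (0.00845%; 1042), set A against WT Covi-Ox (0.161%; 580) or set B against WT Covi-Ox (0.245%; 1127).

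Bhlhe41, the paralog, did not share this pattern on the arrays. It was above the array median on all 22 arrays, at 8.56 and 8.58 in WT control, 8.70, 8.67 and 8.84 in WT cuprizone, 8.58, 8.19 and 8.52 in WT Covi-Ox, and 8.65, 8.65 and 8.75 in WT both. Knockout values were 8.77 and 8.54 in the controls, 8.62, 8.93 and 9.09 after cuprizone, 8.62, 8.72 and 8.55 in set A, and 8.71, 8.89 and 8.75 in set B. In the order of its means, from KO cuprizone (8.88) down to WT Covi-Ox (8.43), every group overlapped the next, and it was called in none of the 16 comparisons by limma. The cuprizone difference in wild type was 0.17 ± 0.14 (95% interval -0.11 to 0.45), and in the knockout 0.22 ± 0.14 (-0.06 to 0.51). Its smallest unadjusted p was 0.009091, for set B above WT Covi-Ox by 0.35 ± 0.12 (limma, adjusted p = 0.3431). The 3 arrays low in immediate-early genes held its high end, 8.84 to 9.09, with 18 of the other 19 below 8.84.

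Mitf, the namesake of its family and a regulator of pigment cell, osteoclast and macrophage genes, was called in 3 of the comparisons that called Bhlhe40, in the same direction and by smaller amounts. In wild type it was at 7.28 and 7.53 in the controls, 7.49, 7.66 and 7.48 after cuprizone, 7.31, 7.23 and 7.31 after Covi-Ox, and 7.80, 7.83 and 7.79 after both. The knockout arrays gave 7.26 and 7.30 in the controls, 6.69, 7.12 and 7.24 after cuprizone, 7.37, 7.40 and 7.24 in set A, and 7.53, 7.49 and 7.43 in set B. The 3 arrays of WT both lay above every other array. The 3 of KO cuprizone lay below every array of both control groups and of WT cuprizone, with KO cuprizone 3 at 7.24 closest to KO control 1 at 7.26. In the order of means these were the first (7.81) and the last group (7.02), each apart from its neighbour, and the 6 groups between them overlapped from one to the next. KO cuprizone was not apart from every group, since KO cuprizone 3 at 7.24 lay above WT Covi-Ox 2 at 7.23.

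Mitf rose with cuprizone on the Covi-Ox feed by 0.53 ± 0.12 (1.44-fold; limma, adjusted p = 0.006541). On normal chow the wild-type difference was 0.14 ± 0.13 (adjusted p = 0.6599) and the knockout one -0.27 ± 0.13 (adjusted p = 0.3822), with a difference between them of -0.40 ± 0.18 that did not pass (limma, adjusted p = 0.461). Under cuprizone alone the knockout was lower than wild type by a log2 difference of -0.53 ± 0.12 (1.44-fold; adjusted p = 0.01298), a call lost without WT cuprizone 2 (-0.47, limma, adjusted p = 0.05507). Set A lay below WT both by -0.47 ± 0.12 (1.38-fold; limma, adjusted p = 0.01227), lost without set A array 3 (-0.42, adjusted p = 0.0628). Set B lay below it by -0.33 ± 0.12, which did not pass (adjusted p = 0.1489) but did without KO cuprizone 1 (adjusted p = 0.04672) and without the 3 arrays low in immediate-early genes (0.03858). A second Mitf probe set was above the array median on no array. Its means were 4.09 in WT both and 3.16 in set B, and 3.21 in WT cuprizone and 3.07 in KO cuprizone. With the mean of both probe sets the knockout difference under cuprizone was -0.33 and no longer called, while set B against WT both was called (-0.63; limma, adjusted p = 0.007013).

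**Figure D2:**
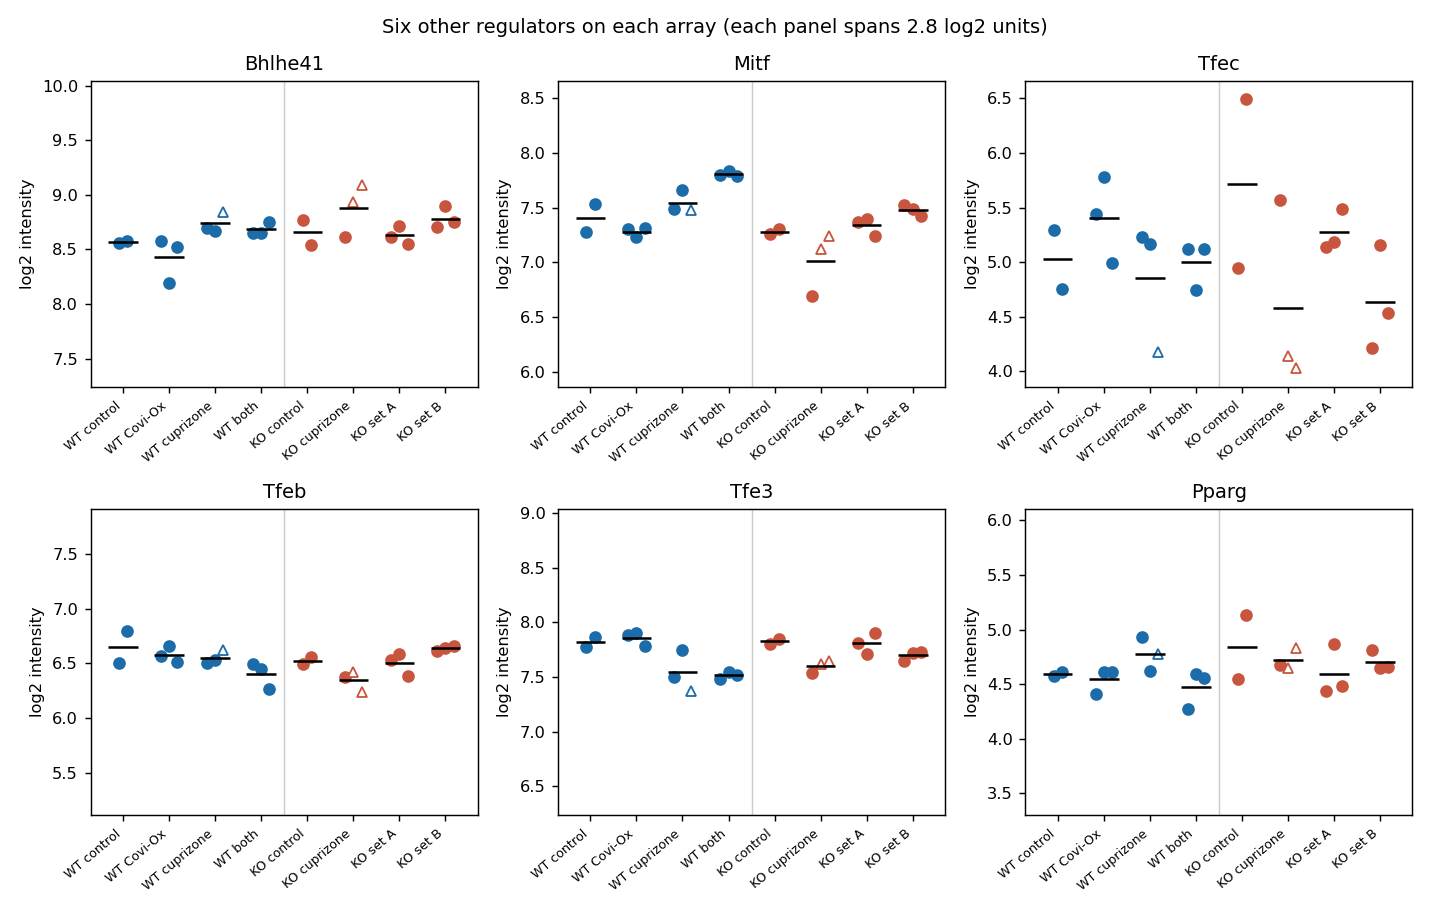
Log2 intensity (vertical axis of each panel) of Bhlhe41, Mitf, Tfec, Tfeb, Tfe3 and Pparg on each of the 22 arrays by group (horizontal axis), 1 point an array with a bar at the group mean and open triangles for the 3 arrays low in immediate-early genes. Blue is wild type and red the knockout, the vertical axes have different starting points, and the 3 WT both arrays of Mitf, at 7.79 to 7.83, lie above all others while Tfec on the open triangles, at 4.03 to 4.18, lies below all others.

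Tfec, the family member expressed mainly in macrophages, was close to the array median and was above it on 7 of 22 arrays. It was at 5.30 and 4.76 in WT control, 5.23, 5.16 and 4.18 in WT cuprizone, 5.44, 5.78 and 4.997 in WT Covi-Ox, and 5.12, 4.75 and 5.12 in WT both. In the knockout it was at 4.95 and 6.49 in the controls, 5.57, 4.14 and 4.03 after cuprizone, 5.14, 5.19 and 5.49 in set A, and 4.22, 5.16 and 4.54 in set B. Its values were spread widely within groups, each group overlapped the next in the order of means, and no comparison called it. The 3 arrays low in immediate-early genes held its 3 lowest values, 4.03 to 4.18, with 4.22 the lowest on the other 19. The knockout cuprizone difference of -1.14 ± 0.44 (limma, adjusted p = 0.2833) became a call without KO control 1 (-1.91, adjusted p = 0.02734) or without KO cuprizone 1 (-1.63, adjusted p = 0.04761), when the groups compared rested on KO control 2 at 6.49 or on both low arrays. Set B against KO control, -1.08 ± 0.44 (limma, adjusted p = 0.2697), became a call without KO control 1 as well (-1.85, adjusted p = 0.02937).

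Tfeb, the best known activator of lysosomal genes, varied little, between 6.24 and 6.80 over all arrays. It was at 6.51 and 6.80 in WT control, 6.51, 6.53 and 6.62 in WT cuprizone, 6.57, 6.66 and 6.51 in WT Covi-Ox, and 6.50, 6.45 and 6.27 in WT both. In the knockout it was at 6.49 and 6.56 in the controls, 6.38, 6.42 and 6.24 after cuprizone, 6.53, 6.59 and 6.38 in set A, and 6.62, 6.64 and 6.66 in set B. KO cuprizone (6.35) and WT both (6.41) had the lowest means, every group overlapped the next in order, and no comparison called Tfeb. KO cuprizone against WT cuprizone gave -0.21 ± 0.10 (limma, adjusted p = 0.2557) and WT both against WT Covi-Ox -0.17 ± 0.10 (adjusted p = 0.3366). The cuprizone difference in wild type was -0.10 ± 0.11, with a 95% interval of -0.33 to 0.13.

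Tfe3, which shares many targets with Tfeb, had somewhat lower values on the cuprizone arrays of both genotypes. It was at 7.78 and 7.87 in WT control, 7.50, 7.75 and 7.38 in WT cuprizone, 7.88, 7.90 and 7.79 in WT Covi-Ox, and 7.48, 7.55 and 7.52 in WT both. In the knockout it was at 7.80 and 7.85 in the controls, 7.54, 7.62 and 7.64 after cuprizone, 7.81, 7.71 and 7.91 in set A, and 7.64, 7.72 and 7.73 in set B. In the order of means, from WT Covi-Ox (7.86) to WT both (7.52), every group overlapped the next. No array of WT cuprizone, WT both or KO cuprizone reached the group of its genotype and feed without cuprizone. Sets A and B, to which no diet is assigned, overlapped each other. WT both lay below WT Covi-Ox by -0.34 ± 0.09 (1.27-fold; limma, adjusted p = 0.03036), the 1 regulator called lower there. That call was lost without WT Covi-Ox 1 or 2 or without any 1 array of WT both, with -0.36 to -0.32 and adjusted p of 0.06837 to 0.109 by limma. On normal chow the difference was -0.28 ± 0.11 in wild type (limma, adjusted p = 0.1791; -0.38 and 0.04776 without WT cuprizone 2) and -0.23 ± 0.11 in the knockout (adjusted p = 0.3505). The difference between those effects, knockout minus wild type, was 0.05 ± 0.15 (95% interval -0.26 to 0.36). Set A lay above WT both by 0.30 ± 0.09 (limma, adjusted p = 0.05335), and this became a call without WT cuprizone 2 (0.03089) or WT cuprizone 3 (0.02986), without the 3 arrays low in immediate-early genes (0.03268), with the mean of these genes in the model (0.04279), with array weights (0.02064), after quantile normalization (0.03036) and with the filter at the 75th percentile (0.03211).

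Pparg was below the array median on all 22 arrays, between 4.28 and 5.14, so that this probe set gave no level above most of the array. It was at 4.57 and 4.62 in WT control, 4.93, 4.62 and 4.78 in WT cuprizone, 4.41, 4.62 and 4.62 in WT Covi-Ox, and 4.28, 4.60 and 4.56 in WT both. Knockout values were 4.54 and 5.14 in the controls, 4.67, 4.65 and 4.83 after cuprizone, 4.44, 4.87 and 4.48 in set A, and 4.81, 4.64 and 4.66 in set B. In the order of means, KO set B (4.70) lay apart from WT control (4.60), and all other neighbours overlapped. In the fit without the filter none of the 16 comparisons called it by limma. The cuprizone difference in wild type was 0.18 ± 0.16 (adjusted p = 0.7366), and its smallest unadjusted p was 0.04791, for WT both below WT cuprizone by -0.30 ± 0.14 (limma, adjusted p = 0.7393).

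**Figure D3:**
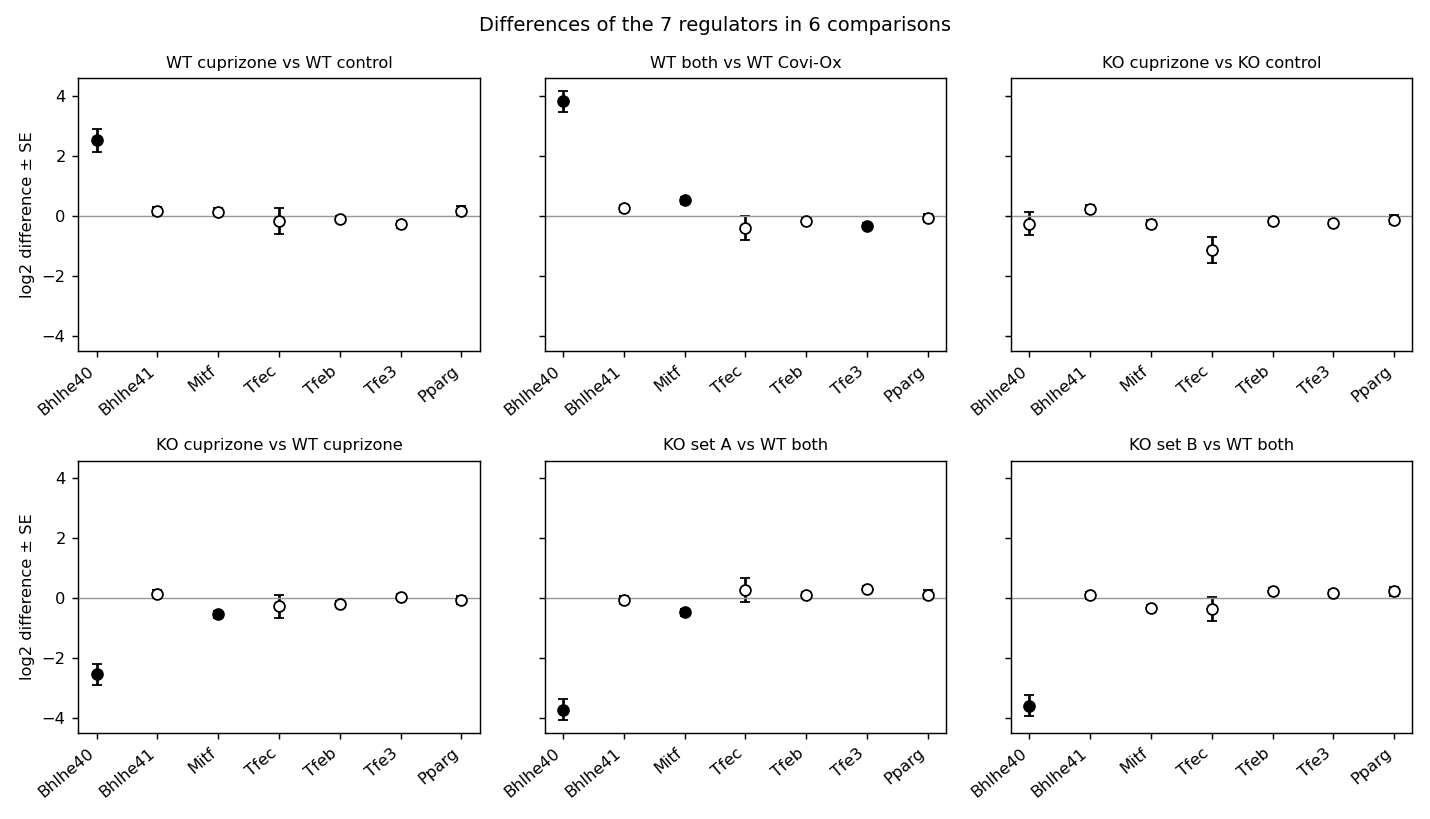
Log2 differences (vertical axes) with standard errors as bars for the 7 regulators (horizontal axes) in 6 comparisons, 1 panel each, with filled dots for differences called at an adjusted p of 0.05. Bhlhe40 is filled in 5 panels, from -3.71 for set A against WT both to 3.82 for WT both against WT Covi-Ox, Mitf in 3 and Tfe3 in 1.

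The genes whose values over the 22 arrays were most like those of Bhlhe40 were Igf1, a growth factor (Pearson r = 0.986), Flt1, a receptor of vascular endothelial growth factors (0.982), and Fn1, fibronectin (0.972). All these values come from the same arrays and groups. Igf1 rose with cuprizone in wild type by 1.66 ± 0.23 (limma, adjusted p = 0.0004754), with a knockout minus wild type difference of -1.78 ± 0.33 (adjusted p = 0.02504). Flt1 rose by 1.46 ± 0.29 (limma, adjusted p = 0.008822) and Fn1 by 2.90 ± 0.54 (adjusted p = 0.004998), while their genotype differences of the effect did not pass (adjusted p = 0.2215 and 0.33). Flt1 is also on the list of endothelial markers, where Cldn5 was above the array median on no array and Pecam1 fell in WT both against WT Covi-Ox (-0.68 ± 0.19; limma, adjusted p = 0.03038).

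For the other regulators the likeness was lower. Bhlhe41 was most like the histone genes H4c4 (r = 0.902) and H4c3 (0.866) and the RNA Rmrp (0.882). Tfe3 was most like Rassf5 (0.880), Ankrd44 (0.876) and Rhobtb1 (0.857). Mitf was most like Hectd2 (0.800), Ctnnb1 (0.795), which encodes beta-catenin, and Cxcl16 (0.788), Tfec like Gkap1 (0.827), Dele1 (0.789) and Tnfaip1 (0.784), and Tfeb like Rbm38 (0.756), Map3k11 (0.726) and Tsc1 (0.722). These correlations over 22 arrays are descriptions with no test.

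Among 20 genes that control Tfeb and Tfe3, all tested, Rragd was called in 4 comparisons. With cuprizone in wild type 1 of the 20 was called, where 2.50% of all genes were, and 1 under cuprizone between genotypes (3.80%). On the Covi-Ox feed 2 were called with cuprizone (7.82%). Against WT both, 1 was higher and 1 lower in set A (9.60%), and 1 was lower in set B (3.89%). These counts do not set the list apart from all genes. Rragd encodes a Rag GTPase that holds these factors at the lysosome and is itself a known target of theirs. It rose with cuprizone in wild type (0.60 ± 0.16; limma, adjusted p = 0.04556) and was lower in the knockout under cuprizone (-0.57 ± 0.14; adjusted p = 0.02736), in set A against WT both (-0.86 ± 0.14) and in set B against WT both (-0.62 ± 0.14). The Rragd calls under cuprizone alone are weak: the first was lost without any 1 of WT control 1, WT cuprizone 1 and 3, WT Covi-Ox 1 and 3, the 3 WT both arrays, KO cuprizone 2, the 3 set A arrays and set B 2, and the second without any 1 WT cuprizone array or without KO cuprizone 2 or 3. With only the arrays compared in the model both were lost. That in set B was lost without WT both 2 or set B 1. With cuprizone on the Covi-Ox feed, Rptor, the scaffold of mTORC1, fell (-0.55 ± 0.11; limma, adjusted p = 0.002313), as did Flcn, folliculin, which acts on the Rag GTPases (-0.41 ± 0.12; adjusted p = 0.04212). Flcn was higher in set A than in WT both (0.42 ± 0.12; limma, adjusted p = 0.03215), a call lost without WT both 2 or 3 or set A 1 or 2. The 2 that fell became 1 without any 1 of WT control 1 and 2, the 3 WT Covi-Ox arrays, WT both 2 and 3, and set A 2. No other gene of this list was called in the 16 comparisons. The median of the list in WT cuprizone against its control was 0.05, against -0.02 over all genes.

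Of 40 lysosomal and autophagy genes of the CLEAR network, 37 were tested, and 5 rose with cuprizone in wild type while none fell. Their median difference was 0.22, against -0.02 over all genes, and 30 of 37 were above 0. Of all genes, 1.80% were called higher in this comparison and 0.702% lower. Gla rose by 1.51 ± 0.19 (limma, adjusted p = 0.0001092), Atp6v0d2, a subunit of the lysosomal proton pump, by 1.33 ± 0.27 (adjusted p = 0.01137), Naglu by 0.65 ± 0.17 (0.04737) and Gaa by 0.64 ± 0.15 (0.02674). The fifth was the protease gene Ctsb (0.51 ± 0.11; limma, adjusted p = 0.01177), named after its value was seen. The count of 5 fell to 1 without WT control 1 or without WT control 2, and to 2 without WT cuprizone 3, and it was 0 with only the arrays of both groups in the model. In the knockout none passed by limma, with a median of 0.12 and 31 of 37 above 0, but without KO control 1 there were 8 that rose. Of the 37, Gla was the 1 whose cuprizone effect passed the test of a difference between genotypes (-1.39 ± 0.26; limma, adjusted p = 0.02923), which was lost without WT control 1, KO control 2, KO cuprizone 2 or KO cuprizone 3. Over the 37, the difference of the effect between genotypes had a median of -0.008, with 18 above 0, where 0.228% of all genes were called. Between the negative controls, knockout minus wild type, the median was -0.135, with 7 of 37 above 0. Gla was among these, so part of its -1.39 lies in the control groups. Under cuprizone, 5 of 37 were lower in the knockout, among them Atp6v0d2 (-1.33 ± 0.24), Gla (-0.84 ± 0.17), Gaa (-0.55 ± 0.13) and Atp6v1b2, another pump subunit (-0.55 ± 0.14), and the sialidase gene Neu1 (-0.48 ± 0.13), the last named after its value was seen. Of all genes, 2.98% were called lower in this comparison. The count of 5 lower genes was 3 without WT cuprizone 2, 2 without WT cuprizone 3 and 2 without KO cuprizone 2. With only the arrays of both groups in the model it was 0. The Gla difference between genotypes was not called either with only the arrays compared. Without the 3 arrays low in immediate-early genes, 3 rose in wild type, none was lower in the knockout under cuprizone, and the Gla difference of the effect was not called.

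On the Covi-Ox feed, 8 of these 37 rose with cuprizone and none fell, with a median of 0.13 against -0.03 over all genes. Of all genes, 4.65% were called higher there and 3.17% lower. Without WT Covi-Ox 2, WT both 1 or WT both 2 the count was 5. The largest were Atp6v0d2 (2.94 ± 0.24; limma, adjusted p = 1.79e-07), Gla (0.80 ± 0.17), Naglu (0.73 ± 0.15) and Glb1, a beta-galactosidase (0.63 ± 0.15). Against WT both, set A had 10 lower and 1 higher (6 and 0 without WT both 2, and 0 higher without set A 2). Set B had 3 lower (5 without WT cuprizone 3, KO control 1 or KO control 2). Of all genes, 5.60% were called lower and 4.01% higher in set A, and 2.62% lower in set B. Atp6v0d2 was lower by -2.65 ± 0.24 in set A and -2.77 ± 0.24 in set B. In set B against KO control, the pump subunit Atp6v1a (0.77 ± 0.15; limma, adjusted p = 0.02671) and the chloride transporter Clcn7 (0.88 ± 0.19; adjusted p = 0.03494) were higher. Neither passed without KO control 2, without any 1 set B array, with array weights or with only the arrays of both groups in the model, while 10 of 37 were higher without KO control 1.

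Of 12 osteoclast and macrophage genes described as targets of Mitf and its relatives, 7 were tested, and 2 rose with cuprizone on either feed, Gpnmb and Atp6v0d2. Of all genes, 1.80% were called higher on normal chow and 4.65% on the Covi-Ox feed. Gpnmb, a membrane glycoprotein of lipid-laden macrophages, rose by 3.09 ± 0.34 on normal chow (limma, adjusted p = 2.067e-05) and by 4.10 ± 0.30 with Covi-Ox (adjusted p = 2.908e-08). Its cuprizone effect was smaller in the knockout by a difference of -2.77 ± 0.48 (limma, adjusted p = 0.01626), which did not pass without WT control 1, WT control 2 or KO control 2. Without either wild-type control, 1 of these 2 genes was called on normal chow. With only the arrays compared in the model, neither was called on normal chow and the Gpnmb difference did not pass, while both were called with Covi-Ox.

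Of 17 lipid and lysosome genes described as under Bhlhe40 and Bhlhe41, 15 were tested. With cuprizone in wild type their median was 0.72, against -0.02 over all genes. There 7 rose and none fell, where 1.80% of all genes were called higher. They included Lpl, lipoprotein lipase (3.36 ± 0.30; limma, adjusted p = 1.086e-06), Gpnmb, Fabp5, a fatty acid carrier (2.43 ± 0.33; adjusted p = 0.0003411), and Lgals3, galectin-3 (2.17 ± 0.14; adjusted p = 1.047e-08). None passed in the knockout by limma, with a median of 0.20, and 2 rose when KO control 1 was left out. The effect differed between the genotypes for Gpnmb, Lpl (-2.56 ± 0.43; limma, adjusted p = 0.01173) and Lgals3 (-1.98 ± 0.20; adjusted p = 2.152e-05). Without WT control 1, WT control 2 or KO control 2, 1 of these 3 differences passed. Under cuprizone, 7 were lower in the knockout, where 2.98% of all genes were. With only the arrays compared in the model, 2 rose with cuprizone in wild type, 1 difference between genotypes passed and 2 were lower in the knockout. On the Covi-Ox feed 10 rose and 1, the transcription factor gene Maf, fell (-0.46 ± 0.13; limma, adjusted p = 0.0375), a call lost without any 1 of the 6 arrays compared. Against WT both, 12 of 15 were lower and 1 higher in set A (none higher without set A 2), and 8 lower in set B. Of all genes, 4.65% were called higher and 3.17% lower with cuprizone on the Covi-Ox feed. Against WT both, 5.60% were lower in set A and 2.62% in set B. The list is known from work on mice that lack these repressors and was chosen with results of these data in view, so its counts are no independent evidence about Bhlhe40.

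**Figure D4:**
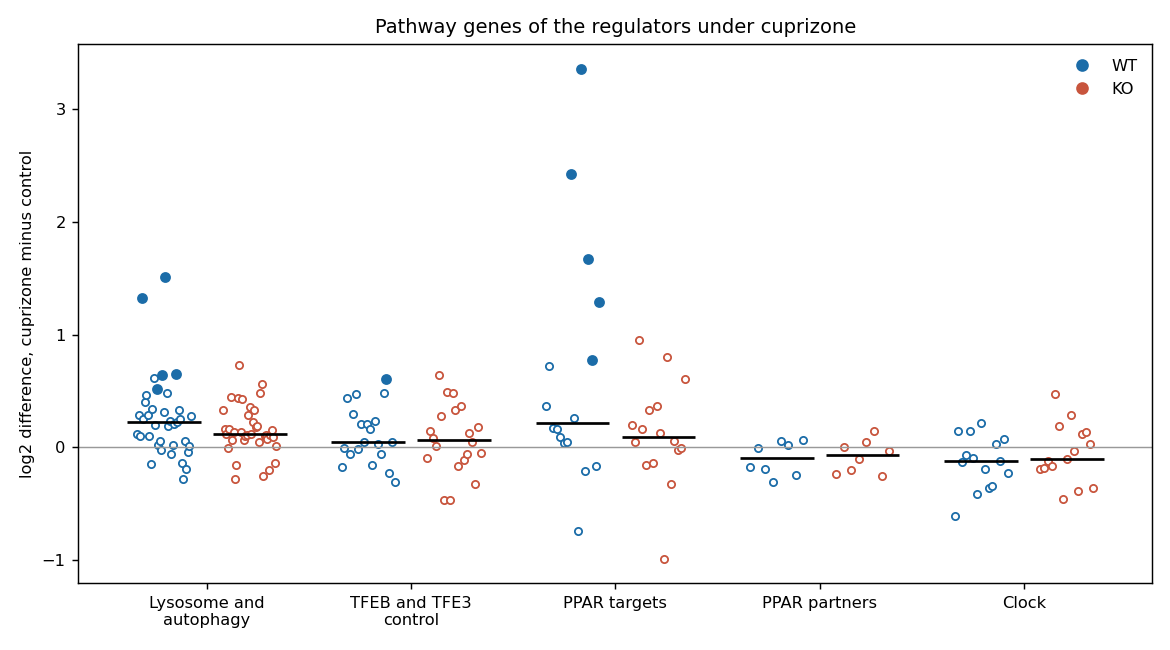
Log2 differences, cuprizone minus control on normal chow (vertical axis), of the tested genes of 5 lists (horizontal axis), 1 point a gene, blue for wild type and red for the knockout, filled where called at an adjusted p of 0.05, with a bar at each list's median. In wild type 5 lysosomal genes, 1 gene that controls Tfeb and Tfe3 and 5 PPAR targets are filled, and no knockout point is.

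Of 21 PPAR target genes, 16 were tested, although Pparg itself was below the array median. With cuprizone in wild type 5 rose, where 1.80% of all genes were called higher. Beside Lpl and Fabp5 they were the oxidised lipoprotein receptor Olr1 (1.67 ± 0.20; limma, adjusted p = 7.699e-05), the desaturase Scd2 (1.29 ± 0.30; adjusted p = 0.02674) and the droplet protein Plin2 (0.77 ± 0.18; adjusted p = 0.02396), the last named after its value was seen. Without WT control 1, WT control 2 or WT cuprizone 3 the count was 3. None passed in the knockout by limma, with a median of 0.09, and 1 did without WT cuprizone 3 or KO control 1. The effect differed between genotypes for Lpl and Olr1 (-1.61 ± 0.28; limma, adjusted p = 0.01626), and neither passed without WT control 1, WT control 2 or KO control 2, while 1 did without KO cuprizone 2. Under cuprizone 4 of 16 were lower in the knockout, where 2.98% of all genes were. With only the arrays compared in the model, 1 rose with cuprizone in wild type, no difference between genotypes passed and 1 was lower in the knockout. On the Covi-Ox feed 6 rose, and Mgll, monoglyceride lipase, fell (-0.69 ± 0.16; limma, adjusted p = 0.01124), lost without WT Covi-Ox 1 or WT both 2, while 2 fell without WT cuprizone 3. Of PPAR targets that rose there, 4 were left without WT Covi-Ox 2 or WT both 2. Over all genes, 4.65% were called higher on that feed and 3.17% lower. Olr1 was also higher with both additives than with cuprizone alone (2.48 ± 0.18; limma, adjusted p = 1.901e-07), and its cuprizone effect was larger on the Covi-Ox feed (1.97 ± 0.27; adjusted p = 0.003089), the last lost without WT control 2 or with only the arrays compared in the model. Of 15 partners of PPAR, 8 were tested, and the corepressor Nrip1 was the 1 called. It was lower with cuprizone on the Covi-Ox feed (-0.47 ± 0.10, limma, adjusted p = 0.003673). Nrip1 was higher in set A (0.47 ± 0.10) and set B (0.40 ± 0.10) than in WT both. The last call was lost without any 1 WT both array or without set B 1 or 2. Over all genes, 7.82%, 9.60% and 3.89% were called in these comparisons.

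Of 17 circadian genes, among which Bhlhe40 and Bhlhe41 act, 15 were tested. None was called by limma with cuprizone on normal chow in either genotype, while 1 fell in wild type without WT cuprizone 2, and in the knockout 1 rose without KO control 1 and 1 fell without KO cuprizone 1. On the Covi-Ox feed Nfil3, a clock output repressor, rose (1.21 ± 0.25; limma, adjusted p = 0.004216), as did Rora (0.38 ± 0.11; adjusted p = 0.03443), while the clock repressor Cry1 fell (-0.77 ± 0.20; adjusted p = 0.0205). Without WT Covi-Ox 1 or 2 or WT both 1 or 2, 1 rose and none fell, without WT both 3, 1 rose, and without WT cuprizone 3 or WT Covi-Ox 3, 2 fell. Nfil3 was lower in the knockout than in wild type under cuprizone (-1.04 ± 0.25; limma, adjusted p = 0.02359; lost without WT cuprizone 1 or 2 or KO cuprizone 2 or 3, or with only these 6 arrays in the model), in set A against WT both (-1.33 ± 0.25) and in set B against WT both (-1.35 ± 0.25). Hlf, an output activator, was higher in set A (0.64 ± 0.14) and set B (0.66 ± 0.14) than in WT both. Against WT both, Cry1 was higher in set A (0.74 ± 0.20; limma, adjusted p = 0.02165). Rora was lower in set A (-0.37 ± 0.11; limma, adjusted p = 0.03318) and in set B (-0.40 ± 0.11; adjusted p = 0.03658). In fits with 1 array left out, the number of these genes lower fell to 1 in either set, and the number higher to 1 in set A. Over all genes, 7.82% were called with cuprizone on the Covi-Ox feed and 3.80% between genotypes under cuprizone alone. Against WT both, 9.60% were called in set A and 3.89% in set B.

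Markers of the sorted cells moved in the same comparisons. Over all genes, 3.17% were called lower in WT both than in WT Covi-Ox. Against WT both, 4.01% were higher and 5.60% lower in set A, and 1.27% higher and 2.62% lower in set B. Under cuprizone, 0.820% were higher in the knockout. Of the 11 microglia markers, 6 were lower in WT both than in WT Covi-Ox (4 without WT Covi-Ox 2), and against WT both 7 were higher and 1 lower in set A, and 4 higher and 1 lower in set B (2 higher without WT both 2 or set B 1). Under cuprizone, 3 were higher in the knockout, among them P2ry12 (0.33 ± 0.08; limma, adjusted p = 0.02384), and none was without WT cuprizone 3, KO cuprizone 2 or KO cuprizone 3, or after median centring, when 1 was lower.

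Of the 8 border macrophage markers, 1 fell with cuprizone in wild type, Pf4 (-0.76 ± 0.20; limma, adjusted p = 0.04655; lost in most fits with 1 array left out), and 3 in WT both against WT Covi-Ox (0 without WT both 2), while 2 were higher in set A than in WT both. Over all genes, 0.702% were called lower with cuprizone in wild type and 3.17% lower in WT both against WT Covi-Ox, and 4.01% higher in set A. The markers' mean per array was 7.84 to 7.91 in WT control, 7.10 to 7.62 in WT cuprizone, 7.66 to 7.96 in WT Covi-Ox and 6.81 to 7.29 in WT both. In the knockout it was 7.48 to 7.66 in the controls, 6.60 to 8.02 after cuprizone, 7.51 to 7.84 in set A and 6.89 to 7.41 in set B, and KO cuprizone held both the lowest and the highest array.

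Of the 7 neutrophil markers, 5 were tested, and the calprotectin subunits S100a8 (-5.99 ± 0.70; limma, adjusted p = 0.0003315) and S100a9 (-5.24 ± 0.71; adjusted p = 0.001902) were lower in WT Covi-Ox than in WT control. Without WT control 1 or 2, 1 of them was called. They were also lower in set B than in KO control (-3.63 ± 0.70 and -3.67 ± 0.71; limma, adjusted p = 0.02794 for both), and neither was without KO control 2, set B 1 or set B 3. S100a8 was higher in WT both than in WT Covi-Ox (2.66 ± 0.63; limma, adjusted p = 0.01113), lost without WT Covi-Ox 3 or WT both 2. The mean of the neutrophil markers was 7.28 to 7.30 in WT control, 5.63 to 7.20 in WT cuprizone, 4.27 to 4.70 in WT Covi-Ox and 5.15 to 5.58 in WT both. In the knockout it was 6.58 to 6.68 in the controls, 5.93 to 7.07 after cuprizone, 4.92 to 5.11 in set A and 4.65 to 5.87 in set B. Among these markers, Mmp8 was above the array median on no array and none was above it on all 22. In WT Covi-Ox against WT control, 4 of the 5 tested were lower with the immediate-early mean in the model, and all 5 with only the arrays compared. In the same 2 settings, 1 and 3 were lower in set A against KO control, and 4 and 0 in set B against it. The part of these markers in the regulators' differences was not tested.

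**Figure D5:**
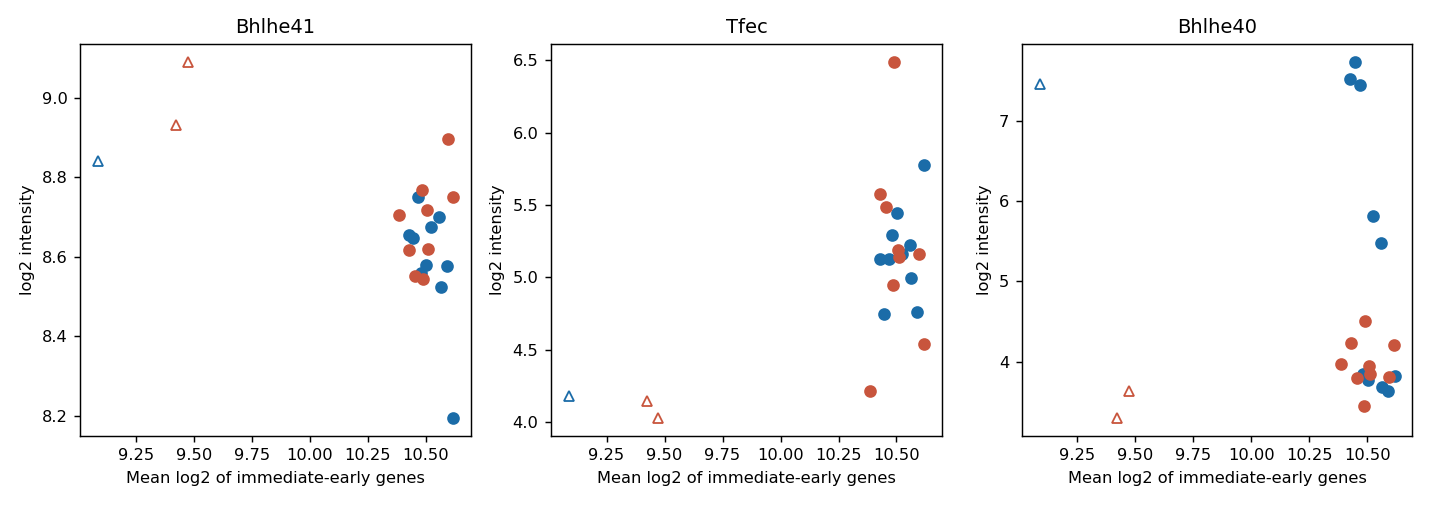
Bhlhe41, Tfec and Bhlhe40 (log2 intensity, vertical axes) against the mean of 18 immediate-early genes on the same array (log2, horizontal axes), 1 point an array for 22 arrays, blue for wild type and red for the knockout, with open triangles for WT cuprizone 3, KO cuprizone 2 and KO cuprizone 3. These 3 arrays lie at 9.09 to 9.47 on the horizontal axis and the other 19 at 10.39 to 10.62, and Tfec on the 3 arrays is at 4.03 to 4.18.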

How the data were processed

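RNA of sorted microglia was measured on Affymetrix MoGene arrays, 22 in 8 groups. The deposited values are RMA intensities on a linear scale, per the submitters' processing notes. The array's genome build is not given in the sources used here. Log2 of these intensities was used. Of 28098 probe sets, 21640 map to 1 symbol, and a gene is the one of these with the highest mean over the groups. Genes above the array median on at least 2 arrays were kept, 11830 of 19937. A model of 8 group means over all 22 arrays was fitted with limma 3.58.1 in R 4.3.3 (14 residual degrees of freedom), with 16 comparisons and Benjamini-Hochberg adjustment over all genes, with calls made at an adjusted p of 0.05. Errors are standard errors of the model. The script was tested on simulated data. Named are all regulators, up to 4 called genes of each list with the largest difference in a comparison, and the 3 genes most correlated with each regulator. The regulators, lists and tests were chosen with earlier results of these data known. Start-site regions are from RefSeq, GRCm38.p6. Alternatives were another filter, normalization, probe-set rule, variance estimate, array weights, a replicate block, only the groups compared, and each array left out. The number of arrays limits the precision.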

Additional observations from a re-analysis of the deposited data

Results flagged for a closer look

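The cuprizone effect on Bhlhe40 differed between genotypes by -2.77 on the log2 scale (knockout minus wild type; limma, adjusted p = 0.03731), the 1 difference of a regulator between the genotypes' effects that passed its test. This call held in 14 of 33 alternatives and was lost with only the arrays compared in the model (limma, adjusted p = 0.6836). In wild type 3 of 3 cuprizone arrays lay above both controls. In the knockout the 3 cuprizone arrays lay between 3.30 and 4.23, among or below the controls at 3.45 and 4.50. No test for a single outlying array was made in groups of 2 or 3 arrays, although WT cuprizone 3, at 7.47, lay apart from the other 2 of its group, at 5.48 and 5.82.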

How the results depend on the processing

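No called difference of a regulator changed sign under any of 33 alternatives, 22 of which left out 1 array each, while 74 values of differences that were not called did. The Bhlhe40 calls of WT both over WT Covi-Ox and of sets A and B below WT both held in 33 of 33, and those of wild type with cuprizone and of the knockout against wild type under cuprizone in 32. The call of its genotype difference held in 14 of 33, between -3.30 and -1.66. Mitf in WT both over WT Covi-Ox held in 33, Mitf under cuprizone in 30, Mitf in set A in 32 and Tfe3 in 27, where it had an adjusted p of 0.05039 with no filter (limma). The count of 6 regulators called ranged, with 1 array left out, from 1 to 2 for cuprizone in wild type, 0 to 1 for cuprizone in the knockout, 0 to 1 for the genotype difference, 1 to 2 for knockout against wild type under cuprizone, 2 to 3 for WT both against WT Covi-Ox, 0 to 1 for WT both against WT cuprizone, the Covi-Ox difference and set B against KO control, 1 to 3 for set A against WT both and 1 to 2 for set B against WT both. With only the arrays compared, the counts for cuprizone in wild type, for the genotype difference and for knockout against wild type under cuprizone were 0. The replicate block gave 0 for the genotype difference (limma, adjusted p = 0.05185), as did eBayes with trend and robust. Replicate numbers did not pair the arrays: of 71 same-numbered pairs 3 had a correlation over 0.1, with a median of -0.000262. Averaging a gene's probe sets, the count was 1 for knockout against wild type under cuprizone and 2 for set B against WT both. Array weights gave 1 for WT both against WT cuprizone, 1 for the Covi-Ox difference and 2 for set B against WT both. For set A against WT both the count was 3 in place of 2, with Tfe3 added, under array weights, quantile normalization, the stricter filter, the covariate and without the 3 arrays low in immediate-early genes. Leaving out the 3 arrays low in immediate-early genes, an alternative chosen after seeing the data, gave 0 for the genotype difference, 1 for WT both against WT cuprizone, 1 for the Covi-Ox difference and 2 for set B against WT both. The immediate-early mean as a covariate, also chosen after seeing the data, gave 1 for WT both against WT cuprizone. The cause of these changes was not tested. Over all genes the number called also moved with the setting: with 1 array left out it was 69 to 428 for cuprizone in wild type (296 with all arrays), 0 to 765 in the knockout (5), 6 to 265 for the genotype difference (27), 207 to 542 for knockout against wild type under cuprizone (450), 531 to 1213 for WT both against WT Covi-Ox (925) and 718 to 1443 for set A against WT both (1136). Under the other 11 settings the same counts were 9 to 377, 0 to 15, 4 to 95, 39 to 816, 771 to 1751 and 974 to 1879. With 1 array left out, then under the other settings, the remaining counts were 5 to 701 and 5 to 12 for the genotypes' controls (8), 2 to 12 and 3 to 52 for Covi-Ox alone (4), 4 to 104 and 2 to 150 for WT both against WT cuprizone (18), 1 to 32 and 2 to 40 for the Covi-Ox difference (3), 0 to 925 and 0 to 33 for set A against KO control (4), 0 to 876 and 2 to 263 for set B against it (88), 0 to 37 and 1 to 93 for set A against set B (1), 311 to 599 and 389 to 885 for set B against WT both (460), 9 to 26 and 18 to 36 for set A against WT Covi-Ox (19), and 10 to 66 and 15 to 174 for set B against it (29). Bhlhe40 outside wild-type cuprizone arrays, Tfec and Pparg lay near or below the array median, which limits their precision.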
